A study of Saccharomyces cerevisiae with 119 samples.

Results

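*HSP12* and 9 other small stress genes of budding yeast were followed through every library of 2 RNA-seq experiments on ethanol and salt stress. The members were taken from a list of systematic names: *HSP12* (YFL014W), *DDR2* (YOL052C-A), *RTC3* (YHR087W), *SIP18* (YMR175W), *GRE1* (YPL223C), *HOR7* (YMR251W-A), *RGI1* (YER067W), *STF2* (YGR008C), *SPI1* (YER150W) and *HSP30* (YCR021C), which is 10 of the 6685 genes in the table. The first experiment held 71 libraries of 8 wild-type diploid strains: the lab strain S288c (DBY8268) and the wild strains YJM1129, M1, Y10, YPS163, YPS606, M22 and YJM308. Each strain was sampled unstressed in rich glucose medium, after 30 min in 5% ethanol and after 45 min in 0.4 M NaCl (salt hereafter), with 3 replicates except for Y10 in ethanol, which had 2. The second experiment held 48 libraries of the oak strain YPS606, as wild type or with homozygous deletions (*msn2*∆ *msn4*∆, *skn7*∆ or *yap1*∆), under the same 3 treatments with 4 replicates each. One culture gave the unstressed sample and was then split between the stresses, so that ethanol and salt responses share their unstressed libraries, and dose and time differ between the stresses. Each background or genotype is a single strain, the wild backgrounds being homozygous diploid segregants of their isolates, and the deletions carry drug-resistance cassettes in place of the gene. Each library pools the RNA of a whole culture, so a larger share of cells that express a gene and more RNA per cell cannot be told apart.

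The general stress response of yeast is carried in large part by Msn2p and Msn4p, related zinc-finger activators that enter the nucleus under stress and bind the stress response element, a short promoter sequence with the core AGGGG. Skn7p and Yap1p are activators best known for oxidative stress. Several of the genes described here are among the most strongly induced genes of yeast under many stresses. Many of their products are short and very hydrophilic, and they are thought to protect membranes or proteins as cells lose water, whereas others act at the cell wall, at the plasma membrane or in energy metabolism.

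All 10 genes are annotated in the R64 assembly with a single coding exon that overlaps no other annotated gene. *HSP12*, the membrane-associated small heat shock protein, lies on the plus strand at chrVI:107256-107585. The likely hydrophilin *SIP18* lies at chrXIII:611016-611255 and its paralog *GRE1*, also a hydrophilin, at chrXVI:128632-129138. The paralogs *DDR2*, first found as a DNA-damage-responsive gene, and *HOR7*, an osmotically responsive gene, lie at chrXV:231570-231755 and chrXIII:774752-774931. *RTC3*, whose product resembles a domain of the ribosome maturation factor Sdo1p and is little understood, lies at chrVIII:280820-281155. *STF2*, related to a stabilizing factor of the mitochondrial ATP synthase and linked to survival of drying, lies at chrVII:508110-508364, and *RGI1*, needed for energy metabolism under respiratory conditions, at chrV:292066-292551. *SPI1*, a cell wall protein anchored by GPI and linked to weak acid tolerance, lies at chrV:468370-468816, and *HSP30*, a plasma membrane protein that lowers the activity of the proton pump Pma1p, at chrIII:156109-157107.

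The stress response element was searched for on both strands (AGGGG, or CCCCT on the coding strand) from 250 bases before to 50 bases after the start codon. It was found at least once in 21.6% of 6001 promoters, at least 2 times in 2.93% and at least 3 times in 0.483%. *DDR2* held 3 copies, *HSP12* and *RGI1* 2 each, and *RTC3* and *STF2* 1 each, whereas none was found in this window for *SIP18*, *GRE1*, *HOR7*, *SPI1* or *HSP30*. Stretches of 4 promoters are shown because the results below turn on these genes, 3 with the most copies and 1 with none. Each runs 5′ to 3′ on the coding strand and covers the first 150 bases of that window, with the element in capitals: *HSP12* chrVI:107006-107155 (plus strand), *DDR2* chrXV:231856-232005 (minus strand), *RGI1* chrV:291816-291965 (plus strand) and *HSP30* chrIII:157208-157357 (minus strand). The sequence is that of the R64 reference and not of the wild strains.
HSP12: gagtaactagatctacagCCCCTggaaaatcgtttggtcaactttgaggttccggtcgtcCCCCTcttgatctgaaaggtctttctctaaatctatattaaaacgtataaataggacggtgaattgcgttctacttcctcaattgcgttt
DDR2: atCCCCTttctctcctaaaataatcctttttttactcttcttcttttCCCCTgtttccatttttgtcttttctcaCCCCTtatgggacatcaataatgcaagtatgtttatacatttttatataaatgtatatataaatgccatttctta
RGI1: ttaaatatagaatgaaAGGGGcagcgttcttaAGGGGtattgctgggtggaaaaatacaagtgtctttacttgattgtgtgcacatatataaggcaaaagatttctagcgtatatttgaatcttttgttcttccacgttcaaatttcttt
HSP30: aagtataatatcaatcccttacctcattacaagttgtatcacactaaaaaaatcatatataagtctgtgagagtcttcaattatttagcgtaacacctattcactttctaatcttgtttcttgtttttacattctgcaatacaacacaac

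Libraries held from 7726938 to 18253411 counts. Levels are given as CPM, counts scaled for library size, after scaling with trimmed means of M values (TMM), responses as log2 differences with their standard errors (SE), and a gene was called changed at an adjusted p (FDR) below 0.01 and a change of at least 1.5-fold in edgeR's quasi-likelihood test across all genes. As a check on the labels, *MSN2* and *MSN4* were at most at 0.467 CPM in the 12 *msn2*∆ *msn4*∆ libraries, *SKN7* at most at 0.303 CPM in the 12 *skn7*∆ libraries and *YAP1* at most at 0.507 CPM in the 12 *yap1*∆ libraries, against 7.01 CPM or more in the 36 libraries of that experiment with each gene intact. A pair of libraries of the strain experiment stood apart, named after seeing the data and not by a rule. In unstressed YPS606 replicate 2, *HSP12* was at 33.9 CPM against 1.90 and 3.001 CPM in replicates 1 and 3, and *RTC3* at 15.6 CPM against 0.995 and 0.857 CPM. In YPS606 ethanol replicate 3, *HSP12* was at 49.2 CPM against 344 and 423 CPM in replicates 1 and 2, and *HSP30* at 3042 CPM against 422 and 405 CPM. Other libraries of this experiment also differed from their replicates. Unstressed M1 replicate 3 held *HSP12* at 11.5 CPM against 2.61 and 2.395 CPM, and *RTC3* at 3.89 CPM against 1.15 and 1.26 CPM. Unstressed YJM1129 replicate 3 held *RGI1* at 11.6 CPM against 2.43 and 5.94 CPM. One Y10 library carries a salt treatment label but an ethanol title. It was used as salt, and leaving it out changed the call of 1 of 143 member tests.

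Averaged over the 8 strains, every one of the 10 genes rose in ethanol, and all but *HSP30* rose in salt. Among all genes tested, 29.8% rose in ethanol and 18.7% in salt. The median response of the 10 genes was 5.79 in log2 units in ethanol and 4.90 in salt, against 0.05 and −0.06 over all genes. With *DDR2* and *SIP18*, which had groups of 3 counts or fewer, set below or above the rest, the medians lay between 5.56 and 6.14 in ethanol and between 3.92 and 4.90 in salt. Strain by strain, 78 of 80 ethanol tests and 68 of 80 salt tests were called higher, against 28.4% and 16.8% of the tests of all genes. By edgeR, 0 of 80 were called lower in ethanol and 0 of 80 in salt (by DESeq2, 0 of the 71 it tested in each), and no decrease had an unadjusted p below 0.05. The 2 ethanol tests that were not called were those of *SIP18* in M1 and YPS163, the first at log2 1.497 (adjusted p = 0.0125) and the second at 20 summed counts in ethanol against 6 unstressed. The 12 salt tests not called were those of *HSP30* in all 8 strains, *RGI1* in S288c, YJM1129 and M1, and *STF2* in M1.

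**Figure D1:**
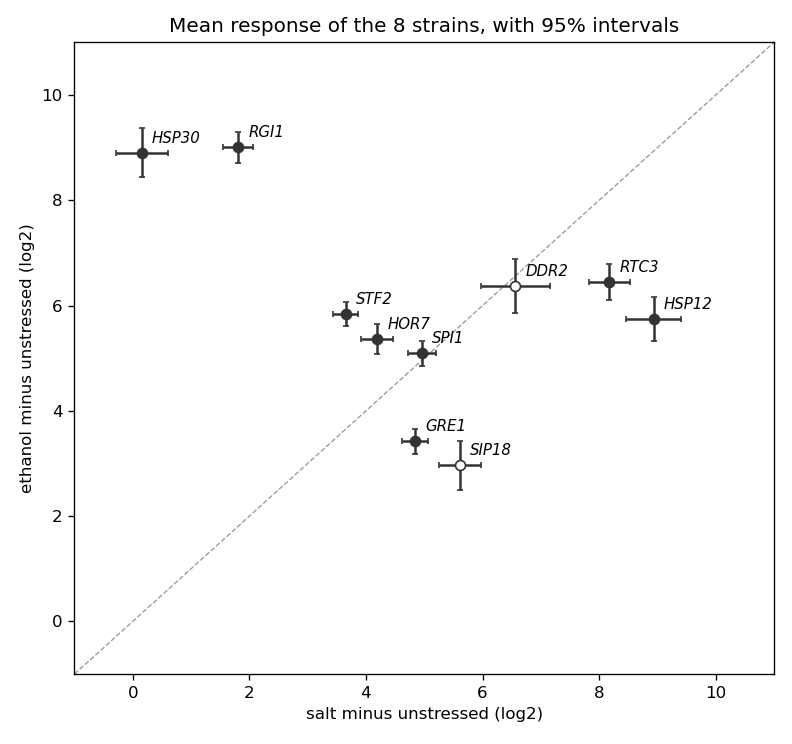
Mean log2 response to ethanol (vertical axis) against mean log2 response to salt (horizontal axis, dashed line at equal responses) of each gene over the 8 strains, with 95% intervals as bars and open points for *DDR2* and *SIP18*, which were near 0 counts unstressed in several strains. *HSP30* and *RGI1* lie at the top left with small salt responses (0.15 and 1.81), *HSP12* and *RTC3* lie farthest right (8.94 and 8.18), and *SPI1* lies near equal responses (5.09 and 4.96).

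The genes split by stress. *HSP30* was called in ethanol alone, *RGI1*, *STF2* and *HOR7* responded more to ethanol, and *HSP12*, *RTC3*, *SIP18* and *GRE1* more to salt. On average over strains, the level in ethanol exceeded that in salt by 8.75 log2 units (SE 0.23) for *HSP30*, 7.20 (SE 0.14) for *RGI1*, 2.18 (SE 0.10) for *STF2* and 1.17 (SE 0.12) for *HOR7*. It was below that in salt for *HSP12*, at −3.19 (SE 0.19), for *SIP18*, at −2.65 (SE 0.14), for *RTC3*, at −1.73 (SE 0.13), and for *GRE1*, at −1.42 (SE 0.09). These were 4 calls in each direction, against 49.1% of all genes called in either. *SPI1* (0.14, SE 0.10, adjusted p = 0.205) and *DDR2* (−0.18, SE 0.15, adjusted p = 0.264) were not called on average, although both differed within single strains and in opposite directions, as described below. Strain by strain, 35 of 80 tests were called higher in ethanol than in salt and 32 lower, against 49.1% of the tests of all genes called in either direction.

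The order of abundance changed with the stress. Per kilobase of coding sequence, the median CPM over the 8 strains put *RGI1* first in ethanol (5800 CPM per kb), ahead of *HOR7* (2360), *STF2* (2320), *HSP30* (1340) and *HSP12* (770 CPM per kb). In salt, *HSP12* was first at 7970 CPM per kb, followed by *RTC3* at 1390 CPM per kb, and *HSP30* was last at 3.47 CPM per kb. Unstressed cells held the most *HOR7*, at 54.6 CPM per kb, and the least *SIP18*, at 0.599 CPM per kb.

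**Figure D2:**
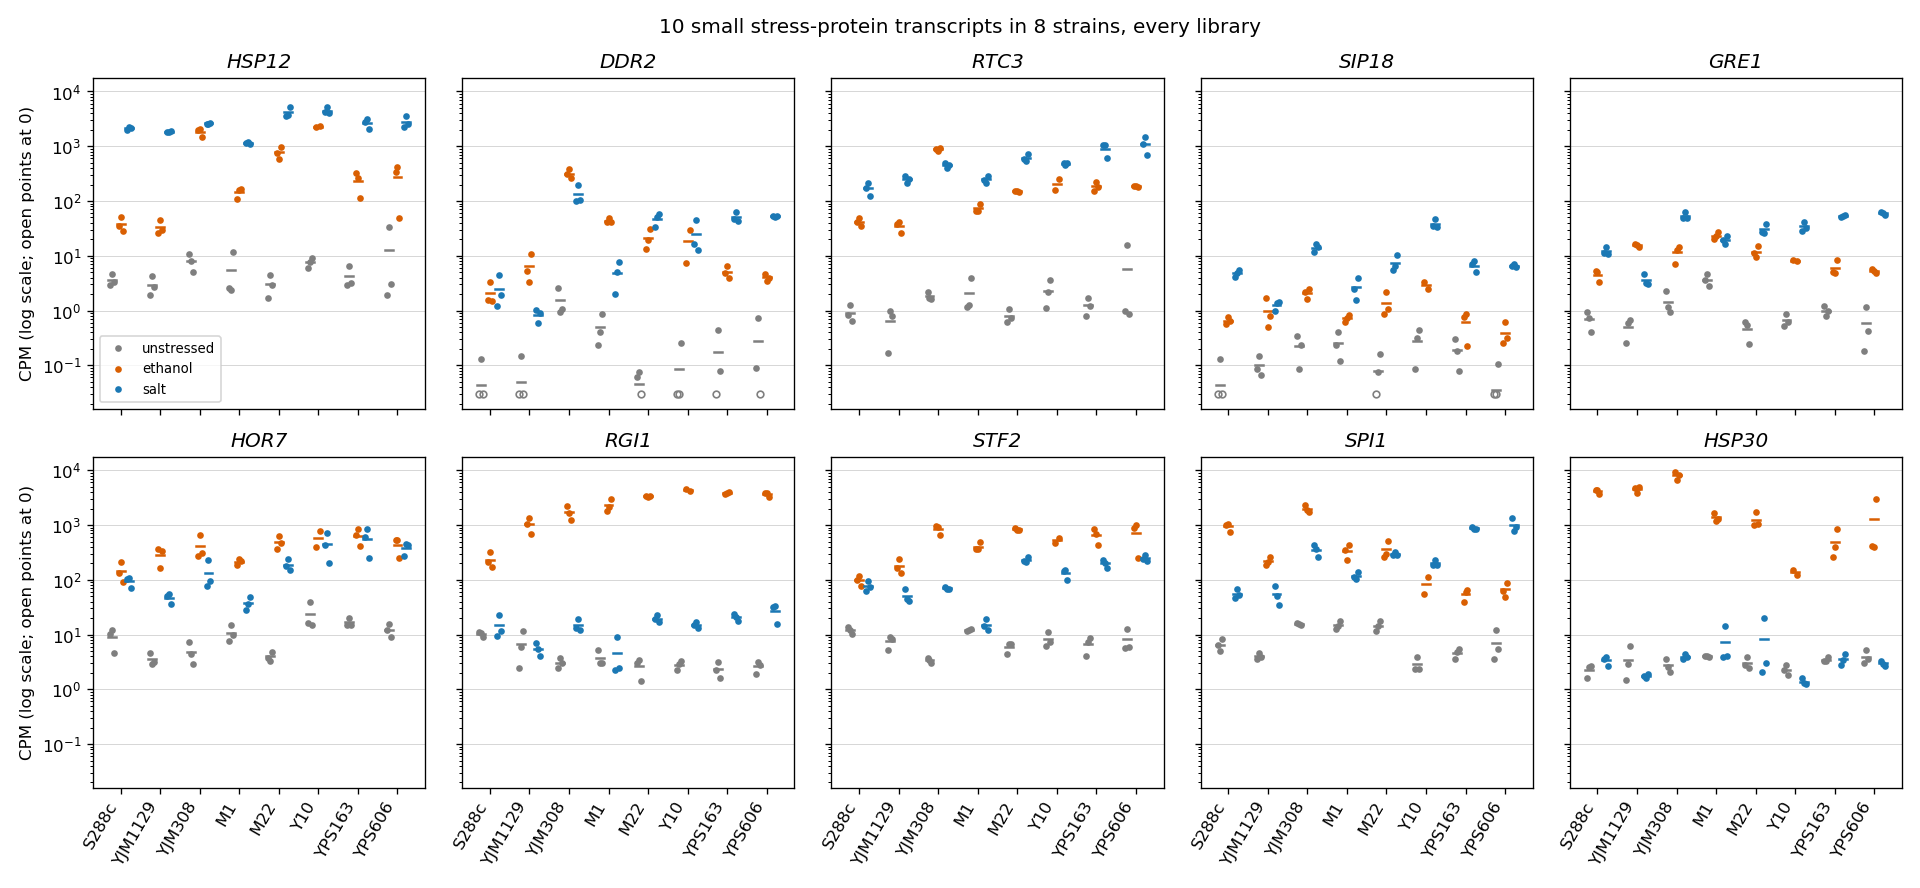
CPM of each gene (log axis) in every library of the 8 strains, coloured by treatment, 1 point per library with bars at the group mean and open points for libraries at 0. *HSP12* in salt stays between 1081 and 5216 CPM in all strains, while in ethanol it runs from 26.2 to 2351 CPM. *HSP30* in salt lies near the unstressed points except for M22 replicate 2 (20.2 CPM) and M1 replicate 2 (14.1 CPM), and *SPI1* has its ethanol points above salt in S288c, YJM1129, YJM308 and M1 and below salt in Y10 and both oak strains (YPS163 and YPS606).

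*HSP12* was induced in every strain under both stresses, but the strains differed far more in ethanol than in salt. Unstressed libraries held between 1.68 and 33.9 CPM, and salt libraries between 1081 CPM in M1 and 5216 CPM in Y10, a mean induction of 490-fold (log2 8.94, SE 0.24, adjusted p = 3.13e-37). In ethanol, S288c held 34.5, 51.4 and 28.1 CPM and YJM1129 held 26.2, 45.7 and 30.1 CPM. The other strains all lay above these 6 libraries, with the exception of YPS606 replicate 3, the library that stood apart, whose 49.2 CPM fell within the range of S288c. M1 held 110.0, 159.9 and 163 CPM and YPS163 held 327, 268 and 113 CPM. M22 held 750.1, 589 and 987 CPM, YJM308 1964, 2046 and 1452 CPM, and Y10 2201 and 2351 CPM, so that each of these 3 strains lay above the remaining 5. The highest strain mean was 67-fold the lowest in ethanol, against 3.94-fold in salt and 4.34-fold unstressed. The unstressed ratio rests on the YPS606 mean of 12.9 CPM, which includes the 33.9 CPM library that stood apart. The next highest unstressed mean was 7.90 CPM, in YJM308. Against the mean response of the strains, the ethanol response of *HSP12* was called lower in S288c (−2.38, SE 0.54) and YJM1129 (−2.25, SE 0.55) and higher in Y10 (2.41), M22 (2.35) and YJM308 (2.09), although each of these 5 calls was lost when replicate 1 or replicate 2 was left out of all groups. In salt, 0 of 8 strains were called by edgeR, with 3 at an unadjusted p below 0.05 and 1 called by DESeq2 (M22). Without unstressed YPS606 replicate 2, the lower *HSP12* responses of M1 were also called (−1.41 in ethanol and −1.63 in salt), and the YPS606 responses rose from 4.57 to 6.77 in ethanol and from 7.96 to 10.20 in salt.

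*RTC3* followed *HSP12* closely. Over the 24 group means of the strain experiment, its log2 CPM had a Pearson correlation of 0.965 with that of *HSP12*, the second highest of all genes after *MSC1* (0.969) and ahead of *GPP2*, *DAK1* (both 0.956) and *PST2* (0.951). The groups share cultures and the treatment difference, so this describes a common pattern and is not a test. The same correlation was 0.899 for *SIP18*, 0.859 for *GRE1*, 0.822 for *DDR2*, 0.357 for *RGI1* and 0.12 for *HSP30*. *RTC3* rose 87.1-fold in ethanol and 289-fold in salt on average. YJM308 was the exception to its preference for salt: it held 884, 807.5 and 927.5 CPM in ethanol and 496, 404 and 446 CPM in salt, without overlap, whereas in the other strains the salt mean was the higher. The ethanol response of *RTC3* in YJM308 exceeded the mean response by 2.46 (SE 0.45, adjusted p = 2.32e-05). Its unstressed level in YPS606 was called 1.72 above the strain mean, but was −0.37 without replicate 2, and without that library the salt response of *RTC3* in YPS606 went from −0.43 to 1.71 relative to the mean (adjusted p = 0.00383).

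The hydrophilin paralogs *SIP18* and *GRE1* responded more to salt in most strains, and per kilobase they were the least abundant of the 10 genes in ethanol (3.58 and 19.4 CPM per kb). *SIP18* stayed at or below 3.37 CPM in every ethanol library and reached 35, 46.9 and 33.8 CPM in Y10 under salt, the highest group. The other strains ranged from 0.975 CPM in YJM1129 to 16.4 CPM in YJM308 in salt. *GRE1* rose 10.7-fold in ethanol and 28.7-fold in salt on average, and YJM1129 went the other way. It held 16.7, 15.6 and 14.6 CPM of *GRE1* in ethanol and 4.57, 3.14 and 3.03 CPM in salt, a difference of 2.09 (SE 0.25) in favour of ethanol, whereas the difference favoured salt in YPS606 (−3.49, SE 0.26), YPS163 (−3.13, SE 0.25) and 4 other strains, M1 not being called. In M1, unstressed *GRE1* was already at 3.60, 4.59 and 2.80 CPM, above every unstressed library of the other strains (2.07 above the strain mean, SE 0.20). Its salt response in M1 differed from the mean response by −2.42 (SE 0.26), while its salt level, at 19.4, 16.6 and 22.5 CPM, was above the levels of S288c and YJM1129.

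The paralogs *DDR2* and *HOR7* both rose in every strain under both stresses, but differed in unstressed level and in spread between strains. *DDR2* was at or near 0 counts in unstressed cells, with 2 counts summed over the 3 libraries in S288c, YJM1129 and M22, 3 in Y10 and 55 in YJM308. YJM308 stood above the rest in ethanol, at 316, 377 and 259 CPM, and in salt, at 99.2, 197 and 105 CPM, while S288c reached only 1.53, 3.33 and 1.52 CPM in ethanol and 1.19, 4.41 and 1.92 CPM in salt. From unstressed cells this was a ratio of 43.9 in S288c in ethanol (counting interval 11.8 to 368) and 211 in YJM308. YPS163 held 4.91, 6.46 and 3.98 CPM in ethanol and 46.1, 61.9 and 42.4 CPM in salt, and YPS606 was similarly divided, with 3.50 to 4.56 CPM in ethanol and 51.2 to 53.6 CPM in salt. M1 was divided the other way, with 41.3, 48.6 and 41.8 CPM in ethanol and 2.02, 5.09 and 7.65 CPM in salt. The difference between ethanol and salt was −3.28 (SE 0.41) in YPS163, −3.71 (SE 0.42) in YPS606, 3.17 (SE 0.41) in M1, 2.88 (SE 0.54) in YJM1129 and 1.302 (SE 0.34) in YJM308. *HOR7*, in contrast, was present in unstressed cells at 2.86 to 40.0 CPM. Its strain means in ethanol spread over only 4.41-fold, the smallest spread among the 10 genes in ethanol. Its salt response was lower in M1 (−2.29, SE 0.35), where it reached 28.2, 36.3 and 49.4 CPM.

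*STF2* and *RGI1*, both tied to energy metabolism, were weak in S288c under ethanol. *RGI1* rose in S288c from 11.3, 10.7 and 9.03 CPM to 209, 318 and 168 CPM. The 20 ethanol libraries of the other strains held 674 CPM or more, and Y10 reached 4469 and 4098 CPM, so S288c did not overlap any other strain. Unstressed *RGI1* was higher in S288c than the strain mean (1.47, SE 0.22, adjusted p = 1.59e-07), and its ethanol response there differed from the mean response by −4.55 (SE 0.33). It was also lower in YJM1129 (−1.84) and higher in YPS163 (1.73), Y10 (1.49), YPS606 (1.46) and M22 (1.31). In salt, *RGI1* did not pass 32.6 CPM in any library. Its salt response was called in 5 of 8 strains, at log2 1.81 (SE 0.13) on average and 3.35 (SE 0.39) in YPS606, and the strain responses were below the mean in YJM1129 (−2.13), M1 (−1.58) and S288c (−1.33) and above it in YPS606 (1.54) and YPS163 (1.38). *STF2* rose in S288c from 13.8, 12.1 and 10.2 CPM to 97.7, 119 and 77.5 CPM in ethanol, below all ethanol libraries of the other strains (−2.82 against the mean response, SE 0.27). It was higher than the mean in YJM308 (2.11) and M22 (1.32). In salt, M1 held 14.1, 19.1 and 12.3 CPM of *STF2* against 11.6, 12.2 and 12.6 CPM unstressed. These ranges overlap, the response (0.29, SE 0.29) was not called, and it differed from the mean response by −3.37 (SE 0.28, adjusted p = 5.99e-14).

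For the cell wall gene *SPI1*, S288c and the oak strains changed places between the stresses, while YJM308 was among the 3 highest strains in both. In ethanol it was at 2320, 1851 and 1698 CPM in YJM308 and at 1016, 1062 and 741 CPM in S288c, but at 39.8, 60.1 and 66.4 CPM in YPS163, 62.2, 49.4 and 89.2 CPM in YPS606 and 54.4 and 112 CPM in Y10. The first pair of strains lay above all the others and the last 3 below all the others. In salt, the oak strains were highest, with 923, 842 and 843 CPM in YPS163 and 1348, 771 and 927 CPM in YPS606, while S288c held 46.8, 67.3 and 51.9 CPM and YJM1129 77.4, 50.9 and 34.8 CPM, which overlap. Ethanol exceeded salt by 4.09 (SE 0.31) in S288c, 2.47 (SE 0.29) in YJM308, 1.98 (SE 0.29) in YJM1129 and 1.499 (SE 0.28) in M1, without overlap of the libraries, and salt exceeded ethanol in YPS163 (−3.98, SE 0.31), YPS606 (−3.94, SE 0.31) and Y10 (−1.27, SE 0.33). Against the mean response, S288c was higher in ethanol (2.09, SE 0.30) and lower in salt (−1.87, SE 0.30), and YPS163 was lower in ethanol (−1.53, SE 0.32) and higher in salt (2.59, SE 0.31). These 4 calls held with each replicate number left out.

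*HSP30* was induced in ethanol in every strain. Its salt response was called in 0 of 8 strains by edgeR or DESeq2, with 1 at an unadjusted p below 0.05, and averaged 0.15 (SE 0.23). Unstressed libraries held 1.51 to 6.12 CPM and salt libraries 1.24 to 4.40 CPM, apart from M22 replicate 2 at 20.2 CPM and M1 replicate 2 at 14.1 CPM. In ethanol, it reached 9217, 6704 and 8145 CPM in YJM308, 4694, 3903 and 4950 CPM in YJM1129 and 4395, 4368 and 3742 CPM in S288c. It was far lower in YPS163, at 263, 393 and 834 CPM, and in Y10, at 153 and 120 CPM, which lay below all other strains. The responses exceeded the mean in YJM308 (2.62, SE 0.53) and S288c (1.95, SE 0.53) and were below it in Y10 (−2.93, SE 0.64) and YPS163 (−1.79, SE 0.53). That of YPS606 was not called at −0.60, but without its ethanol replicate 3 it was called lower (−1.92, adjusted p = 0.00207). S288c and YJM1129, the strains with the least *HSP12* in ethanol, were among the 3 strains with the most *HSP30*, and Y10 combined the most *HSP12* with the least *HSP30*. YJM308 went against this pattern, with the most *HSP30* (mean 8022 CPM) and, after Y10, the most *HSP12* (mean 1820 CPM) in ethanol.

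Counted over the 10 genes and 8 strains, 16 ethanol responses were above and 11 below the mean response, and 10 salt responses were above and 12 below. S288c departed in 6 of 10 genes in ethanol, against 33.4% of all genes, and in 2 in salt, against 3.65%. YJM1129 departed in 4 in ethanol (20% of all genes) and 3 in salt (7.72%), Y10 in 3 (16.5%) and 1 (6.09%), YPS163 in 3 (13.8%) and 3 (14.8%), YPS606 in 2 (10.6%) and 4 (13%) and M22 in 4 (12.8%) and 2 (14.1%). YJM308 departed in 5 genes in ethanol, all of them higher, against 7.39% of all genes higher and 12.1% in either direction, and in 0 in salt, against 4.98%, where 1 had an unadjusted p below 0.05 and DESeq2 called 0 of 8 tested. M1 was the reverse, with 0 of 10 called in ethanol, against 11.4% of all genes, and 7 lower in salt, against 11.1% of all genes lower and 23.3% in either direction. In M1 in ethanol, 7 of 10 genes had an unadjusted p below 0.05 and DESeq2 called 3. With each replicate number left out in turn, 10 of the 27 ethanol departures and 8 of the 22 salt departures held throughout. These were, in ethanol, *RGI1*, *SPI1* and *STF2* in S288c, *STF2* in YJM1129, *RGI1* and *SPI1* in YPS163, and *HSP30*, *SPI1*, *STF2* and *RTC3* in YJM308. In salt, they were *SPI1* in S288c, YPS163 and YPS606, *SPI1*, *STF2*, *HOR7* and *GRE1* in M1, and *STF2* in M22.

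**Figure D3:**
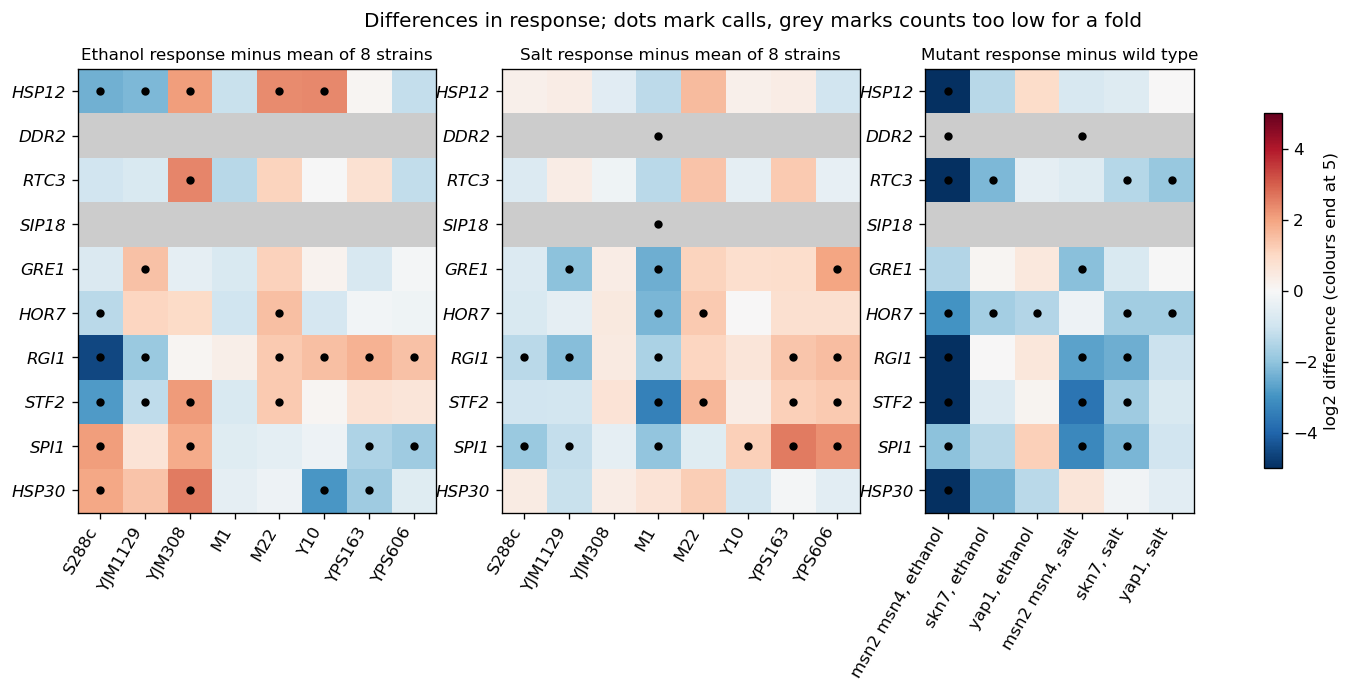
Heat maps of log2 differences for each gene: the ethanol response of each strain minus the mean response, the same for salt, and the response of each deletion strain minus that of wild type. Colours end at a difference of 5 in either direction, black dots mark calls and grey cells have counts too low for a fold. S288c shows *RGI1* at −4.55 in ethanol, M1 *STF2* at −3.37 in salt, and *msn2*∆ *msn4*∆ *HSP12* at −7.67 in ethanol against −0.81 in salt.

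Unstressed levels also differed between strains. Of 80 tests against the strain mean, 12 were higher and 5 lower, against 11.2% of the tests of all genes in either direction, and 8 of the 17 calls held with each replicate number left out. Besides *RGI1* in S288c and *GRE1* in M1, these 8 were *SPI1*, higher in YJM308 (1.11), M1 (1.04) and M22 (0.99) and lower in Y10 (−1.34), and *HOR7*, higher in Y10 (1.39) and YPS163 (0.95).

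Deleting *MSN2* and *MSN4* in YPS606 removed most of the ethanol induction of these genes, but left that of several genes in salt. In the *msn2*∆ *msn4*∆ strain, 8 of 10 ethanol responses were lower than in wild type, against 7.88% of all genes, and 5 of 10 salt responses, against 3.46%. Here and in the other mutants, the 10 include *DDR2* and *SIP18*. Both had too few unstressed counts for a fitted response, so their levels are compared separately below. In unstressed cells 0 of the 10 genes were called by edgeR, with 2 at an unadjusted p below 0.05 and 1 called by DESeq2 (*HOR7*), against 0.209% of all genes. Unstressed *STF2* was at 1.17 to 2.21 CPM in the mutant and 2.90 to 3.72 CPM in wild type, without overlap (−0.92, SE 0.25, adjusted p = 0.137). In wild-type YPS606, *HSP12* rose from 1.71, 1.19, 2.90 and 2.15 CPM unstressed to 658, 384, 476 and 592 CPM in ethanol and 2286, 2448, 1934 and 2047 CPM in salt. In *msn2*∆ *msn4*∆ cells it was at 2.599, 1.34, 2.01 and 2.02 CPM unstressed and at 1.48, 2.16, 1.90 and 5.13 CPM in ethanol, ranges that overlap. In salt the same strain held 1421, 1356, 1116 and 1173 CPM, below wild type without overlap but far above unstressed cells. The ethanol response of *HSP12* was thus 203-fold lower than in wild type (−7.67, SE 0.50, adjusted p = 9.02e-17), whereas the difference in the salt response was −0.81 (SE 0.41) and not called (adjusted p = 0.275).

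**Figure D4:**
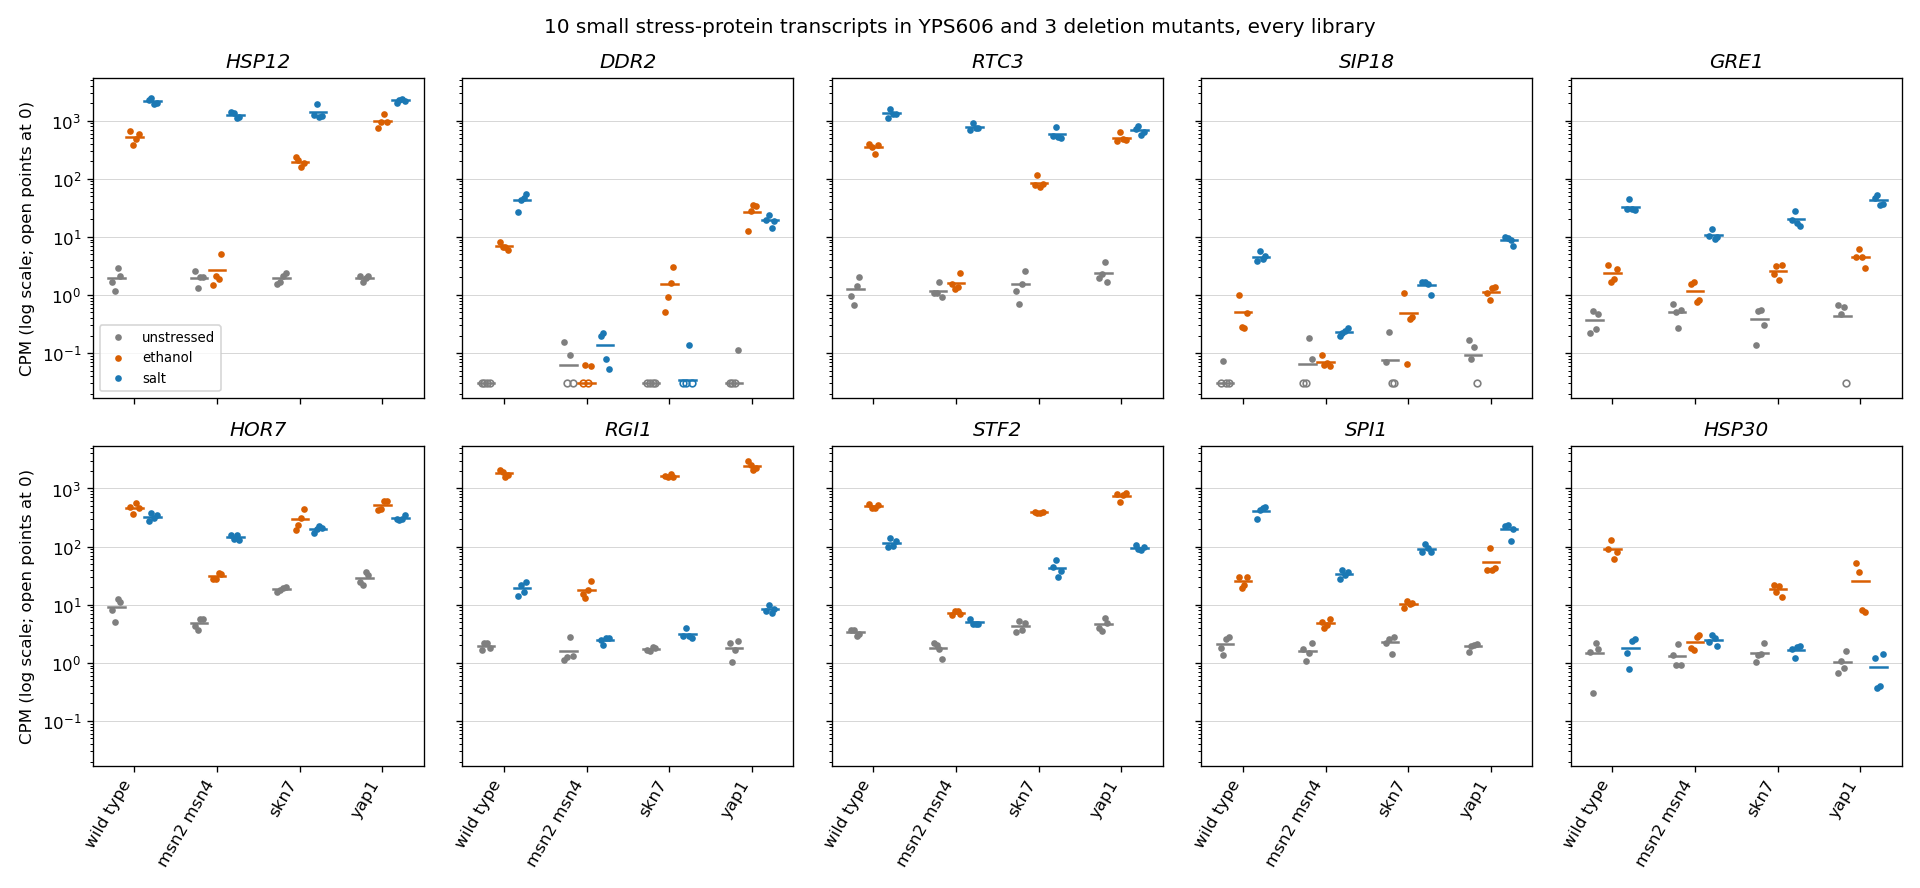
CPM of each gene (log axis) in every library of wild-type YPS606 and the 3 deletion strains, coloured by treatment, with bars at the group mean and open points at 0. The *HSP12* and *RTC3* ethanol points of *msn2*∆ *msn4*∆ fall to the unstressed level (1.48 to 5.13 and 1.27 to 2.42 CPM), while their salt points stay at 1116 CPM or more and 696 CPM or more.

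*RTC3* showed the same contrast, at 1.52, 1.27, 1.35 and 2.42 CPM in ethanol and 696, 914, 735 and 760 CPM in salt in *msn2*∆ *msn4*∆ cells. Wild type held 392, 347, 262 and 387 CPM in ethanol and 1130, 1592, 1290 and 1322 CPM in salt. The *HOR7* response was lower by 2.98 (SE 0.26) in ethanol, while the difference in salt was not called (−0.27, SE 0.25, adjusted p = 0.641). The *HOR7* level in salt was still below wild type, at 129.5 to 157 CPM against 277 to 381 CPM, without overlap. Unstressed, it was at 3.61 to 5.76 CPM in the mutant and 5.14 to 12.5 CPM in wild type, which overlap. For *RGI1*, *STF2* and *SPI1* both responses were lower in *msn2*∆ *msn4*∆: the differences in ethanol and in salt were −6.42 (SE 0.41) and −2.68 (SE 0.40) for *RGI1*, −5.17 (SE 0.34) and −3.63 (SE 0.33) for *STF2*, and −2.03 (SE 0.46) and −3.23 (SE 0.46) for *SPI1*. The *SPI1* call in ethanol was lost without replicate 1 or replicate 4. *RGI1* in ethanol still reached 15.1, 12.9, 17.8 and 25.6 CPM, above the unstressed range of 1.10 to 2.83 CPM. In salt, by contrast, *RGI1* in the mutant was at 2.47, 2.01, 2.65 and 2.66 CPM, within that unstressed range. *STF2* in ethanol reached 6.55, 7.87, 7.78 and 6.89 CPM, and 4.69 to 5.62 CPM in salt, both above 1.17 to 2.21 CPM unstressed. *HSP30* in ethanol was at 1.80, 1.65, 2.78 and 3.06 CPM, against 92.7, 131, 61.1 and 79.6 CPM in wild type, and its response was not called in the mutant (0.82, SE 0.56, adjusted p = 0.185). The fall of the *GRE1* salt response by 2.08 (adjusted p = 0.00484) was lost without the replicate block (adjusted p = 0.0213) and without replicate 1, 2 or 3.

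The difference of the deletion effect between the stresses was tested directly, as ethanol minus salt in the mutant against the same in wild type. For *msn2*∆ *msn4*∆, 6 of 10 genes were lower, against 5.41% of all genes, and 1 was higher, against 7.19%. The effect on ethanol was the larger for *RTC3* (−6.93, SE 0.27, adjusted p = 4.44e-24), *HSP12* (−6.86, SE 0.30, adjusted p = 7e-22), *HSP30* (−5.75, SE 0.67), *RGI1* (−3.74, SE 0.29), *HOR7* (−2.72, SE 0.20) and *STF2* (−1.53, SE 0.22). For *HSP30* and *RGI1* this comparison is limited by their salt levels. *HSP30* had no called salt response in any genotype, so there was no salt induction to lose. *RGI1* in salt was at only 13.9 to 24.6 CPM in wild type and at its unstressed level in the mutant. A larger effect on *RGI1* in salt could therefore hardly be seen. *SPI1* was the gene that was higher (1.20, SE 0.29), a call lost without replicate 3 or replicate 4.

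In the *skn7*∆ strain, 2 of 10 ethanol responses were lower, against 2.49% of all genes, and 5 of 10 salt responses, against 8.18%. *DDR2* and *SIP18* were among the genes not called. Their levels, given below, were nevertheless under wild type without overlap for *DDR2* in both stresses and for *SIP18* in salt. The ethanol responses called lower were those of *RTC3* (−2.25, SE 0.39) and *HOR7* (−1.71, SE 0.22). *RTC3* in ethanol was at 71.4 to 114 CPM in *skn7*∆ against 262 to 392 CPM in wild type. *HSP12*, at 160.5 to 233 against 384 to 658 CPM, and *HSP30*, at 13.8 to 22.1 against 61.1 to 131 CPM, were also below wild type without overlap. Their responses were not called (adjusted p = 0.0227 and 0.0232). The same held for *SPI1*, at 8.66 to 11.55 against 19.8 to 29.95 CPM, and *STF2*, at 381 to 392 against 457 to 543 CPM, also not called. The salt responses of *RGI1* (−2.42, SE 0.37), *SPI1* (−2.28, SE 0.40), *STF2* (−1.76, SE 0.25), *HOR7* (−1.74, SE 0.22) and *RTC3* (−1.42, SE 0.39) were lower than in wild type, that of *RTC3* not without replicate 1, 3 or 4. *RGI1* in salt was at 2.93, 3.97, 2.93 and 2.62 CPM in *skn7*∆ against 13.9, 21.5, 16.4 and 24.6 CPM in wild type, while in ethanol *skn7*∆ held 1657, 1592, 1796 and 1596 CPM and wild type 2103, 1959, 1593 and 1718 CPM, which overlap. The effect of *skn7*∆ on *RGI1* differed between the stresses by 2.43 (SE 0.25, adjusted p = 4.17e-10). In that comparison 3 of the 10 genes were higher and 1 lower, against 10.8% of all genes called in either direction. Salt levels of *HSP12* (1147 to 1930 against 1934 to 2448 CPM) and *GRE1* (15.4 to 27.7 against 28.55 to 44.0 CPM) were also below wild type. Neither overlapped wild type, but the responses were not called.

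In the *yap1*∆ strain, 1 of 10 ethanol responses (*HOR7*) was lower, against 1.25% of all genes, and 2 of 10 salt responses, against 3.46%, namely *RTC3* (−1.91, SE 0.36) and *HOR7* (−1.75, SE 0.22), that of *RTC3* not without replicate 3. By edgeR, 0 of 30 ethanol responses and 0 of 30 salt responses of the 3 mutants were higher than in wild type, against 2.82% and 3.85% of the tests of all genes. At an unadjusted p below 0.05, 2 and 0 were higher, and DESeq2 called 0 of 24 in each stress. The 30 include *DDR2* and *SIP18*, whose fitted responses rest on too few unstressed counts. Their levels, compared below, lay above wild type in *yap1*∆ for *DDR2* in ethanol and *SIP18* in salt. Ethanol levels of other members also lay above wild type in *yap1*∆ without overlap, although their responses were not called higher. *HSP12* was at 747 to 1299 against 384 to 658 CPM and *RTC3* at 441 to 629 against 262 to 392 CPM. *STF2* was at 592 to 822 against 457 to 543 CPM and *SPI1* at 39.7 to 93.1 against 19.8 to 29.95 CPM. *RGI1* was at 2112 to 2995 against 1593 to 2103 CPM. The effect of *yap1*∆ differed between ethanol and salt in 5 of the 10 genes, all toward a higher level in ethanol relative to salt, against 4.96% of all genes: *DDR2* (3.01, SE 0.34), *SPI1* (2.11, SE 0.25), *RGI1* (1.62, SE 0.23), *RTC3* (1.48, SE 0.21) and *STF2* (0.88, SE 0.18). *HSP30* in ethanol varied between *yap1*∆ replicates, at 51.8, 36.6, 8.00 and 7.58 CPM, all below the 61.1 to 131 CPM of wild type, and its response was not called lower (−1.34, SE 0.76, adjusted p = 0.306).

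The lower *HOR7* responses in *skn7*∆ and *yap1*∆ came with higher unstressed levels. Unstressed *HOR7* was at 16.5, 17.9, 19.2 and 20.3 CPM in *skn7*∆ and 24.3, 21.5, 36.6 and 32.3 CPM in *yap1*∆, against 8.23, 5.14, 12.5 and 11.3 CPM in wild type, without overlap. These were the only unstressed calls by edgeR among the 10 genes in the mutants (1.02 in *skn7*∆, adjusted p = 2.26e-05, where 2.71% of all genes were higher, and 1.64 in *yap1*∆, adjusted p = 6.01e-10, where 1.11% were). In ethanol and in salt, the *HOR7* levels of *yap1*∆ (429 to 614 and 282 to 350 CPM) overlapped those of wild type (364 to 555 and 277 to 381 CPM). The *skn7*∆ levels in salt, at 172 to 224 CPM, lay below wild type.

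*DDR2* and *SIP18* had too few counts unstressed for fitted responses in this experiment, so their levels within each stress were compared with exact permutation tests, two-sided, on log2(CPM + 0.1). With 4 libraries against 4 the smallest p is 0.0286, which is 0.0343 after adjustment over the 12 tests. Unstressed wild type held 0 counts of *DDR2* in all 4 libraries, so that its induction was at least 124-fold in ethanol and at least 779-fold in salt against a floor of 3 counts over the group. In ethanol, *DDR2* was at 8.30, 6.61, 6.80 and 6.06 CPM in wild type, 0, 0.0635, 0 and 0.0589 CPM in *msn2*∆ *msn4*∆, 0.502, 0.919, 1.62 and 3.03 CPM in *skn7*∆ and 12.6, 27.9, 35.3 and 33.4 CPM in *yap1*∆. No group overlapped wild type, and *yap1*∆ was the one above it. In salt, wild type held 26.5, 43.6, 46.9 and 55.5 CPM, *msn2*∆ *msn4*∆ at most 0.223 CPM, *yap1*∆ between 14.1 and 24.01 CPM, and *skn7*∆ 0, 0, 0.136 and 0 CPM. The *skn7*∆ salt libraries had 2 counts in all against 2704 in wild type, a ratio of 1170 (counting interval 323 to 9650), although *skn7*∆ cells did express *DDR2* in ethanol. All 6 exact tests of *DDR2* reached the smallest p (0.0286, adjusted 0.0343, 4 against 4). *SIP18* in salt was at 3.79, 5.73, 4.17 and 4.67 CPM in wild type, lower in *msn2*∆ *msn4*∆ (0.197 to 0.266 CPM) and *skn7*∆ (1.01 to 1.66 CPM) and higher in *yap1*∆ (7.10 to 9.92 CPM), each at the smallest exact p. In ethanol it was lower in *msn2*∆ *msn4*∆ only (exact p = 0.0286), with exact p = 0.8286 in *skn7*∆ and 0.0571 in *yap1*∆.

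The wild-type YPS606 libraries of the mutant experiment can be set beside those of the strain experiment, which were fitted separately. The *HSP12* response was 8.06 against 4.57 in ethanol and 10.11 against 7.96 in salt, and that of *HSP30* in ethanol was 5.96 against 8.30. The libraries that stood apart are part of the strain values. Without them, *HSP12* was at 5.13 (ethanol replicate 3 left out) or 6.77 (unstressed replicate 2 left out) and *HSP30* at 6.82 or 8.58 in ethanol.

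The same comparisons were made for 30 other general stress genes, among them the catalase gene *CTT1*, chaperone genes and genes of trehalose and glycogen metabolism. Of the 30, 29 rose in ethanol and 29 in salt on average over strains, with medians of 5.23 and 3.73. In *msn2*∆ *msn4*∆, 28 of their ethanol responses were lower (median −2.58, against −5.16 for the 10 genes and 0.05 over all genes), and 25 of their salt responses were lower and 1 higher (median −2.44, against −2.38 for the 10 genes). With *DDR2* and *SIP18* set below or above the rest, the medians of the 10 genes lay between −5.79 and −4.06 in ethanol. In salt they lay between −2.38 and −0.72. In *skn7*∆, 25 of the 30 were lower in salt. In S288c in ethanol, 21 were below the mean response and 2 above, in YJM308 in ethanol 19 were above and none below, and in M1 in salt 26 were below and none above. Among paralogs of the members, *TMA10* (paralog of *STF2*) rose by 8.52 (SE 0.16) in ethanol and 3.31 (SE 0.185) in salt, and *YRO2* (related to *HSP30*) by 5.94 (SE 0.13) and 2.89 (SE 0.14). *SED1*, the cell wall paralog of *SPI1*, rose by only 0.96 (SE 0.08) in ethanol and 2.41 (SE 0.08) in salt, from an unstressed median of 2800 CPM. *MRH1*, also related to *HSP30*, rose by 0.65 in ethanol on average and was not called in salt (0.58). Single strains went in both directions in ethanol. *MRH1* was lower than unstressed in M1 (149 to 253 against 765 to 1184 CPM) and S288c (223 to 254 against 391 to 469 CPM). It was higher in others, such as M22 (81.1 to 100.5 against 16.9 to 21.8 CPM). *RGI2*, the paralog of *RGI1*, did not pass 1.41 CPM in any library of the strain experiment.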

How the data were processed

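Poly(A)-selected RNA was sequenced as single-end reads in 119 libraries. The authors trimmed reads with Trimmomatic, built a reference for each strain from S288c (sacCer3, R64) with Bowtie 2 2.3.4.1, bcftools and GATK, mapped with STAR 2.6.1, and deposited RSEM 1.3.1 expected counts per gene, which are not normalized and can divide reads between similar genes or be fractional. Expected counts were whole in 56 of 119 libraries for *HSP12* and in 116 for *SIP18*. Strand use in counting is not given in the sources used here. Totals were 7726938 to 17964859 counts in the strain and 8174188 to 18253411 in the mutant experiment, and TMM factors ranged from 0.514 to 1.287.

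Counts were rounded and each experiment was fitted with edgeR 4.0.16 (R 4.3.3; legacy quasi-likelihood test, TMM), with group and replicate number as terms, over the 6090 and 5748 genes whose mean reached 1 CPM in some group. Benjamini-Hochberg adjustment ran over all genes of each contrast. The replicate number is a block because, per the methods, each replicate was 1 library block and 1 sequencing lane, and the same number is 1 culture within a strain or genotype. Mean correlations of residuals were 0.076 and 0.089 within a culture, 0.062 and 0.07 between cultures of the same number, and −0.032 and −0.024 otherwise. Alternatives were no replicate block, DESeq2 size factors, DESeq2 1.42.0, the newer quasi-likelihood test of edgeR 4, no filter, other thresholds, each replicate number left out, the mean of the other 7 strains, and leaving out the Y10 library with conflicting labels. Leaving out each of the YPS606 libraries that stood apart, and the direct contrast of deletion effects between ethanol and salt, were chosen after seeing the data. All 10 members are named by rule. The members and lists were chosen with earlier results of these data known. Intervals of ratios cover counting error only.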

Additional observations from a re-analysis of the deposited data

Results flagged for a closer look

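Among 108 groups of 4 libraries tested, 5 had a library far from the others, and chance flags about 1 in 20 groups. *SIP18* in *skn7*∆ salt replicate 4 was at 1.01 CPM, against 1.57 to 1.66 CPM in the others. *GRE1* in wild-type salt replicate 2 was at 44.0 CPM, against 28.6 to 30.2 CPM, and in unstressed *yap1*∆ replicate 4 it was at 0.0 CPM, against 0.470 to 0.660 CPM. *STF2* in *msn2*∆ *msn4*∆ salt replicate 1 was at 5.62 CPM, against 4.69 to 4.75 CPM. *SPI1* in *yap1*∆ ethanol replicate 2 was at 93.1 CPM, against 39.7 to 42.6 CPM.

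The 3 largest tested differences of each kind were the following, in log2 units. From the mean ethanol response of the strains, *RGI1* in S288c differed by −4.55, *HSP30* in Y10 by −2.93 and *STF2* in S288c by −2.82. The Y10 difference was lost without replicate 1 (adjusted p = 0.0109) or replicate 2 (adjusted p = 0.0135). From the mean salt response, *STF2* in M1 differed by −3.37, *SPI1* in YPS163 by 2.59 and *GRE1* in M1 by −2.42. From wild type in ethanol, *msn2*∆ *msn4*∆ differed by −7.67 for *HSP12*, −7.57 for *RTC3* and −6.42 for *RGI1*. In salt it differed by −3.63 for *STF2*, −3.23 for *SPI1* and −2.68 for *RGI1*.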

How the results depend on the processing

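The counts of departures from the strain means depended on the libraries used and on the threshold. Ethanol departures above the mean went from 16 to between 8 and 18 with a replicate number or 1 library left out (9 without replicate 1, 8 without replicate 2), and those below the mean from 11 to between 6 and 14 (17 at an FDR of 0.05). Salt departures above the mean went from 10 to between 3 and 8 with a replicate number left out (16 at an FDR of 0.05). Unstressed levels below the mean went likewise from 5 to between 1 and 4 (8 at an FDR of 0.05). Levels below wild type in unstressed mutants went from 0 to 1 by DESeq2 and at an FDR of 0.05 (*HOR7* in *msn2*∆ *msn4*∆). The cause was not tested, beyond the fewer samples in these fits. *RTC3* in YPS606 reversed: its unstressed level relative to the strains was −0.30 without replicate 2 and −0.37 without unstressed YPS606 replicate 2, against 2.38 without replicate 3, and its salt response against the mean ranged from −0.85 without replicate 3 to 1.71 without that library. Without the replicate block, ethanol departures above the mean were 17 (16 shared) and salt responses called 67, and 632 of 640 member tests kept their call, as did 632 with the newer test of edgeR 4, 637 with DESeq2 size factors and 617 with the DESeq2 test. All 192 tests against the other 7 strains kept their call. Depth limits *DDR2* and *SIP18*, whose unstressed groups often held 3 counts or fewer.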
